A study of Rattus norvegicus with 6 samples.

Results

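The 10 cartilage-type matrix genes described here are Sox9, Acan, Col2a1, Col9a1, Col9a2, Col9a3, Col11a1, Col11a2, Comp and Matn2, out of 21857 gene symbols counted. They were measured by RNA-seq in NRCFs, cardiac fibroblasts cultured from neonatal hearts of Sprague-Dawley rats no older than 3 days, although the strain label reads "Noway". The 3 Vector libraries, with the genotype label WT, came from cells given the empty plasmid, and the 3 libraries labelled FTO overexpression from cells given the plasmid of FTO, an RNA m6A demethylase, so both groups went through transfection. The cells were purified by differential adhesion, and whether the cultures used for sequencing were kept in normal or low oxygen is not given in the sources used here. The genes were selected by function and on values of the same contrast, since the large drop of Acan was already known. Their differences between the groups are therefore given as a description, with a fold change and its standard error (SE) and no p-value.

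In cartilage, the transcription factor Sox9 binds DNA through its HMG box and, with Sox5 and Sox6, switches on the genes of the matrix. That matrix is a mesh of type II collagen fibrils, with type XI collagen inside them and type IX collagen on their surface, filled with aggrecan (Acan), a large chondroitin sulfate proteoglycan held on hyaluronan. Comp and the matrilins are adaptor proteins that tie fibrils to other matrix proteins. Sox9 and aggrecan are also known from developing heart valves, and Col11a1, Comp and Matn2 from connective tissues other than cartilage.

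The windows upstream of 3 members are shown first, because Acan and Col11a1 were among the members furthest below Vector and Comp was the member above it. They cover the 250 bases before the gene start in RefSeq on build GRCr8, at chr1:142390701-142390950 on the + strand for Acan, chr2:204508886-204509135 on the + strand for Col11a1 and chr16:19089549-19089798 on the - strand for Comp. The authors' processing notes name build rn6, so these windows locate the genes in the reference and carry no read data. Capitals mark every match, on either strand, to the GC box GGGCGG, the CCAAT box CCAAT, the TATA box TATAAA and the TEAD word GGAATG, and to the SOX word NNCAANG with A or T at each N.
Acan: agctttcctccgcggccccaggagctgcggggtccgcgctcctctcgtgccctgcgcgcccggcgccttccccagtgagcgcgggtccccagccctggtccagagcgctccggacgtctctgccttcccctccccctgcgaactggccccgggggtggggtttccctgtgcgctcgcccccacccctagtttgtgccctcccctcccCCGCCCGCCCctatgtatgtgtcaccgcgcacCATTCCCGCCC
Col11a1: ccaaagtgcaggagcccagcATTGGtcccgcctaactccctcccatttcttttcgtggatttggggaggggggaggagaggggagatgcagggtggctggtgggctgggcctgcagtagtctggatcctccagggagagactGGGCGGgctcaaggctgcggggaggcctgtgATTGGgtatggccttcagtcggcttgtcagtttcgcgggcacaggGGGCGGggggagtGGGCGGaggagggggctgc
Comp: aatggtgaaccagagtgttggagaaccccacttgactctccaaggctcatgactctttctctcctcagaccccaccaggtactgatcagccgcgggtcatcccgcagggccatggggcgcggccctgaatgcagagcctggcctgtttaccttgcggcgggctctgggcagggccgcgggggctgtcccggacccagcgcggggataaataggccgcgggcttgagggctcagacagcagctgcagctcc

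RefSeq gave a window for 6 of the 10 members, the other 3 being those of Col9a1, Col9a2 and Col11a2. GC boxes were found in Acan, Col11a1 and Col11a2, 3 in each, and 30.5% of the 33469 windows of this length held at least 1. In Acan the first GC boxes overlap each other, at 43 and 39 bases before the start, and the last, at 6 bases, shares a base with the TEAD word that begins 11 bases before the start. Col11a2 held the other TEAD word, present in 12.1% of all windows, and Col11a1 held a pair of CCAAT boxes, present in 34% of all. No SOX word and no TATA box was found in any of the 6 windows, against 22.4% and 12.9% of all windows. The GC content was 73.6% for Acan, 65.6% for Col11a1, 64.8% for Comp and 62.8% for Col11a2. It was 52.0% for Col9a2 and 46.8% for Col9a1, with a median of 51.2% over all windows. The matches describe the letters of these windows and nothing about binding.

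The libraries held 13178952 to 17857999 counts, and 3 counts, taken as the floor below which no fold was formed, were worth 0.168 to 0.227 CPM (counts scaled to library size) after TMM scaling. All values below are CPM on that scale, and since no transcript length was at hand, levels are not compared between genes. Fto itself was at 88.3 ± 1.20 CPM in Vector and 92.3 ± 1.32 CPM in the libraries labelled FTO (SD, n = 3 each). Its log2 fold change was 0.06, with a 95% confidence interval of -0.04 to 0.16, and edgeR gave it an adjusted p-value of 0.24. The CPM of the second group, 93.2, 90.8 and 92.9, all lay above the Vector values of 87.8, 89.6 and 87.4, by a margin too small for edgeR to call. The second group is therefore named by its label throughout. All 8 listed cardiac fibroblast markers were present, with a summed level of 5152 to 5376 CPM in Vector and 10413 to 10772 CPM in the libraries labelled FTO, of which 3 fell and 5 rose. Among the latter, Dcn (decorin) went from 45.3 to 48.4 CPM up to 5447 to 5861 CPM and was most of the sum there. The 3 that fell were Vim, from a mean of 3161 to 1250 CPM, Ddr2, from 265 to 186 CPM, and Tcf21, from 128 to 96.4 CPM. The rise of the sum therefore does not stand for the list as a whole. Of all genes tested, 32.8% were called lower and 33.2% higher.

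Of the 10 members, 8 had enough counts to be fitted, and 7 of these were lower in the libraries labelled FTO while Comp was higher. In each of the 8, the ranges of the groups were apart. Of the 12941 genes tested, 34.8% lay entirely below and 35.5% entirely above Vector. In edgeR, 32.8% were called lower and 33.2% higher (adjusted p-value under 0.05). The counts of members follow the contrast on which the genes were chosen, and nothing is read from them. Together the 10 members made up 981 to 1015 CPM in each Vector library and 74.1 to 95.9 CPM in each library labelled FTO. Col11a1 supplied 67.4% to 68.6% of the members' counts in Vector and 53.9% to 57.2% in the libraries labelled FTO.

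**Figure D1:**
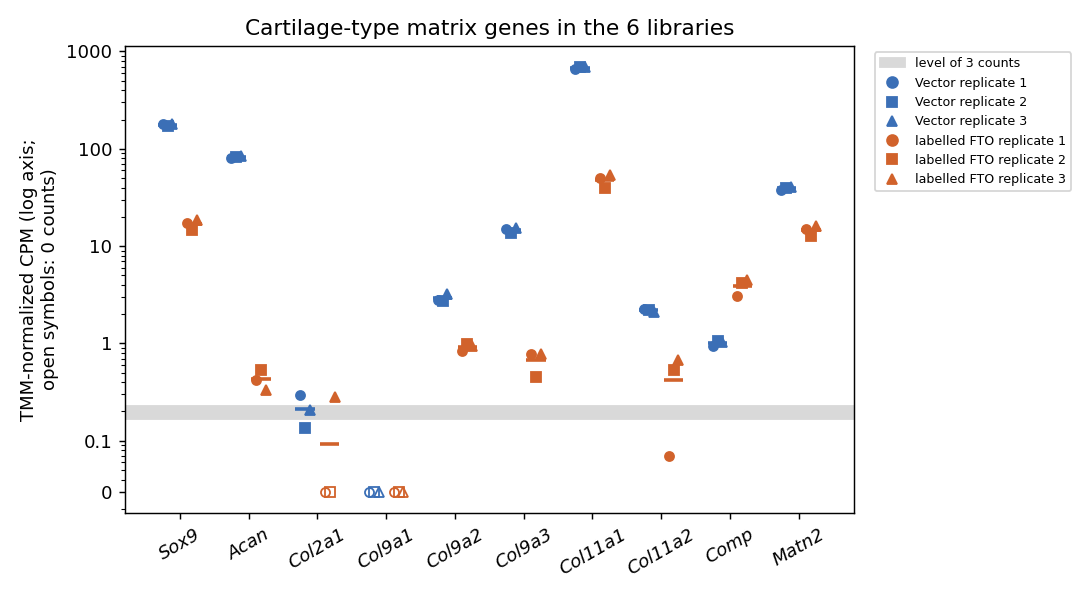
Level of each member in the 6 libraries, in TMM-normalized CPM on a log axis, with 1 symbol per library, short lines at the group means and open symbols for 0 counts. The grey band marks the level of 3 counts, 0.168 to 0.227 CPM. Acan is the member with the widest gap between the groups, Comp the one with the libraries labelled FTO on top, and Col2a1 and Col9a1 lie at or near 0.

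Sox9, the regulator of the set, was at 180, 172 and 178 CPM in Vector replicates 1, 2 and 3. In the libraries labelled FTO it was at 17.3, 14.7 and 18.7 CPM. The libraries of each group lay close together and the groups were far apart, with a log2 fold change of -3.38 (SE 0.0693), or 10.4-fold lower. Sox9 stayed well above the floor, with 195 to 334 counts in each library labelled FTO.

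Acan was at 80.9, 82.8 and 84.7 CPM in Vector and at 0.421, 0.529 and 0.335 CPM in the libraries labelled FTO. These last values rest on 6, 7 and 6 counts, against 1106 to 1234 in Vector, so the gene was close to the floor there but still above it in each library. The log2 fold change was -7.60 (SE 0.332, 95% confidence interval -8.31 to -6.89), or 194-fold lower. That SE is the counting error of the summed counts, which was wider than the error derived from the edgeR test. Acan had the fifth lowest fitted value of the 12941 genes. That rank restates the drop already known when the genes were selected, and it rests on few counts in the libraries labelled FTO. Acan was also lower relative to Sox9 within each library. The ratio of Acan to Sox9 counts was 0.450, 0.482 and 0.476 in Vector and 0.0244, 0.0359 and 0.0180 in the libraries labelled FTO. A change in such a ratio needs no library scaling, although its size says nothing of molecules per molecule, as the transcripts differ in length.

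Col2a1, which encodes the main fibril collagen of cartilage, had 4, 2 and 3 counts in Vector and 0, 0 and 5 in the libraries labelled FTO. The groups overlapped, and at this depth no difference could be detected. The 5 counts of FTO replicate 3 were the most in any library, while the other libraries of that group had none. Col2a1 did not pass the filter on low counts and no fold change is given.

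Type IX collagen is built from the chains of Col9a1, Col9a2 and Col9a3. Col9a1 had 0 counts in all 6 libraries, which allows up to 0.168 to 0.227 CPM in each. Col9a2 was at 2.78, 2.75 and 3.25 CPM in Vector and 0.842, 0.982 and 0.949 CPM in the libraries labelled FTO. The groups were apart, with 12 to 17 counts in each library of the lower group, and the log2 fold change was -1.65 (SE 0.257). Col9a3 was at 14.9, 13.8 and 15.4 CPM in Vector and 0.772, 0.453 and 0.782 CPM in the libraries labelled FTO. The drop was steeper than that of Col9a2, with a log2 fold change of -4.42 (SE 0.265), or 21.3-fold lower, and it rests on 11, 6 and 14 counts in the lower group. The 95% confidence intervals, -4.98 to -3.85 for Col9a3 and -2.20 to -1.10 for Col9a2, did not overlap, and for both genes the SE is again the counting error. The ratio of Col9a3 to Col9a2 counts was 4.74 to 5.37 in Vector and 0.462 to 0.917 in the libraries labelled FTO. Counts of both chains were thus present with no count of their partner Col9a1.

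Type XI collagen is made in cartilage from the chains of Col11a1, Col11a2 and Col2a1, and the Col11a1 chain also assembles with type V chains in other tissues. Col11a1 was at 661, 686 and 690 CPM in Vector and at 49.9, 40.0 and 53.8 CPM in the libraries labelled FTO. It was 14.1-fold lower there, a log2 fold change of -3.82 (SE 0.0767), and with 529 to 964 counts per library it was still measured well. Col11a2 was at 2.27, 2.21 and 2.08 CPM in Vector and at 0.0701, 0.529 and 0.670 CPM in the libraries labelled FTO. The last 3 values come from 1, 7 and 12 counts, so FTO replicate 1 stood below the other libraries of its group. The log2 fold change of Col11a2 was -2.29 (SE 0.397). It was -1.84 without FTO replicate 1 and -2.87 without FTO replicate 3. Col11a1 was also lower relative to Col5a1, a type V chain gene, with a count ratio of 0.360, 0.360 and 0.366 in Vector and 0.0735, 0.0676 and 0.0759 in the libraries labelled FTO.

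Among the adaptor proteins the members parted. Comp, the cartilage oligomeric matrix protein of the thrombospondin family, was at 0.951, 1.07 and 1.04 CPM in Vector and 3.09, 4.15 and 4.47 CPM in the libraries labelled FTO. It was the member with higher values in every library labelled FTO, with 44 to 80 counts against 13 to 16, and its log2 fold change was 1.93 (SE 0.244), or 3.82-fold higher. Matn2, a matrilin not restricted to cartilage, was at 37.8, 39.3 and 40.3 CPM in Vector and 14.9, 12.8 and 16.0 CPM in the libraries labelled FTO. Its log2 fold change of -1.42 (SE 0.0855) was the smallest drop among the 7 lower members. The ratio of Matn2 to Sox9 counts was 0.210, 0.228 and 0.226 in Vector and 0.862, 0.867 and 0.856 in the libraries labelled FTO, so that in each library labelled FTO Matn2 was less reduced than Sox9.

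**Figure D2:**
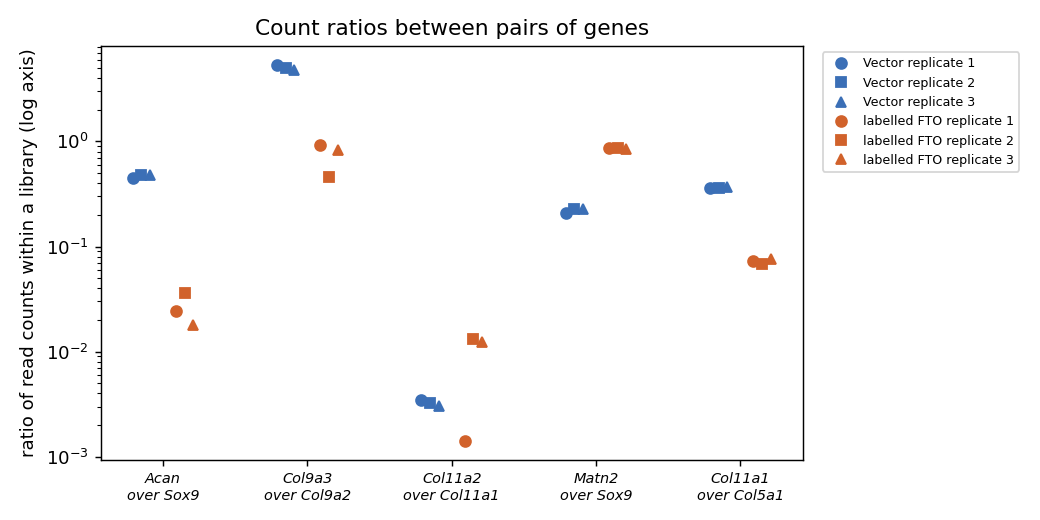
Ratios of read counts between pairs of genes within each of the 6 libraries, on a log axis, with 1 symbol per library. Acan over Sox9, Col9a3 over Col9a2 and Col11a1 over Col5a1 lie lower in all 3 libraries labelled FTO, Matn2 over Sox9 lies higher, and Col11a2 over Col11a1 is spread across both sides of the Vector values, with 1 to 12 counts of Col11a2 per library labelled FTO.

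The spread within the groups also differed. The coefficient of variation of the CPM was 2.35% for Sox9, 2.28% for Acan, 2.27% for Col11a1 and 3.18% for Matn2 in Vector. In the libraries labelled FTO it was 11.8%, 22.6%, 14.9% and 11.2%. For Acan that spread is within counting error, as its 6, 7 and 6 counts there gave a chi-square of 0.682 on 2 degrees of freedom. In the same libraries the chi-square was 5.38 for Matn2, 6.92 for Sox9 and 31.0 for Col11a1, so Col11a1 stood furthest above counting error. Of the 8 fitted members, 4 had their lowest value of that group in FTO replicate 2, namely Sox9, Col9a3, Col11a1 and Matn2, and 6 had their highest in FTO replicate 3. The gap between the groups was wider than this spread for each of the 8.

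The genes with the pattern nearest to those of Acan and Sox9 were sought by the distance between centred log2 CPM values over the 6 libraries, among 12480 genes with a mean of at least 1 CPM. For Acan they were C1qb (distance 1.72), a complement gene of macrophages, Aldh1a1 (1.74), a retinaldehyde dehydrogenase, and Stab1 (1.84), a scavenger receptor. C1qb was at 18.7 to 20.4 CPM in Vector and 0.0701 to 0.112 CPM in the libraries labelled FTO, Aldh1a1 at 48.8 to 50.2 and 0.842 to 1.12 CPM, and Stab1 at 105 to 116 and 2.53 to 3.30 CPM. For Sox9 they were nearer, namely the P-cadherin gene Cdh3 (0.144), the neural adhesion gene Nrcam (0.156) and the lipoprotein receptor gene Vldlr (0.225). Cdh3 was at 129 to 132 CPM in Vector and 11.2 to 13.6 CPM in the libraries labelled FTO. With 6 libraries in 2 groups, such nearness mostly reflects the group difference. For Acan the match in size was loose, as Aldh1a1 was 50.6-fold and Stab1 37.2-fold lower, against 194-fold for Acan. C1qb had 1, 1 and 2 counts in the libraries labelled FTO, under the floor, and was at least 87.0-fold lower.

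Schwann, tendon and valve cells, in which Sox9 or Matn2 are known, could be present in such cultures, and markers of other cells moved with the groups. In bulk RNA, fewer cells of a type and less RNA per cell cannot be told apart. Of 6 Schwann cell markers, 5 were matched and tested, with 3 lower, and their summed level was 22.9 to 27.8 CPM in Vector and 12.5 to 13.7 CPM in the libraries labelled FTO. The 7 tendon and valve markers summed to 108 to 116 and 107 to 120 CPM, with 3 of 5 tested lower and 1 higher, and Kera at 0 counts. The sum hides opposite moves. Fmod, which encodes fibromodulin, rose from a mean of 55.6 to 93.3 CPM and was most of the sum in the libraries labelled FTO. The tendon transcription factors Scx and Mkx fell from 15.8 to 4.33 CPM and from 1.38 to 0.135 CPM, and Nfatc1, of the valve endocardium, from 34.0 to 10.4 CPM. Of all genes tested, 32.8% were called lower and 33.2% higher. The 8 macrophage markers summed to 497 to 515 and 155 to 178 CPM, with 7 lower and 1 higher. The part of these cells in the values of the members was not tested.

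Beside Sox9, a list of 10 other transcription factors of cartilage was examined, among them its partners Sox5 and Sox6, and 8 were tested. Of these, 5 fell (62.5%, against 32.8% of all genes) and 0 rose (against 33.2%) at an edgeR adjusted p-value under 0.05. At an unadjusted p-value under 0.05, 6 were lower and 0 higher, and DESeq2 and limma-voom also called 0 higher. The 5 were Mef2c, Sox6, Runx2, Arid5b and Runx3, the last 2 of them named after their values were seen. Mef2c, which acts in chondrocyte hypertrophy, fell from 61.1 ± 1.80 to 25.0 ± 1.28 CPM (adjusted p-value 8.7e-11). Runx2, a driver of bone and hypertrophic cartilage, fell from 13.4 ± 0.871 to 8.95 ± 0.748 CPM (adjusted p-value 2.7e-04). Runx3 fell from 1.66 ± 0.543 CPM to at most 3 counts per library, which is at least 7.32-fold lower. Sox6, a partner of Sox9, was at 2.57 ± 0.380 and 1.65 ± 0.317 CPM. Its log2 fold change was -0.62 (SE 0.239), and the adjusted p-value was 0.034. That call was lost with DESeq2 (0.0962) and without Vector replicate 1 (0.130), Vector replicate 2 (0.0547) or FTO replicate 2 (0.119). Sox5 was at 6.33 ± 0.715 and 4.84 ± 1.03 CPM and did not pass (adjusted p-value 0.071). The median log2 fold change over the 8 was -0.51, against 0.00 over all genes tested. The gene lists were chosen with earlier results of these data known. The shares and adjusted p-values of this list and of those below are therefore a description and no independent test.

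Of 16 signalling genes of cartilage, 15 were in the files and 13 were tested. Of these, 6 were lower (46.2%, against 32.8% of all genes), 4 were higher (30.8%, against 33.2%), and the median was -0.04. Tgfb3, a ligand that induces cartilage matrix, fell from 922 ± 10.8 to 35.6 ± 0.941 CPM (log2 fold change -4.69, SE 0.0469). Tgfb2 changed by -1.88 (SE 0.0457) and the BMP ligand gene Bmp4 by -1.93 (SE 0.0823). In the other direction, Bmp2 rose from 3.36 ± 0.662 to 32.6 ± 3.51 CPM (log2 fold change 3.26, SE 0.134), the BMP antagonist gene Nog by 1.77 (SE 0.270) and the BMP receptor gene Bmpr1b by 1.28 (SE 0.307). The adjusted p-values of these 6 genes ran from 9.4e-19 for Tgfb3 to 0.0019 for Bmpr1b.

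Other cartilage matrix genes moved both ways. Of 20 listed, 19 were in the files and 10 were tested, with 5 lower, 3 higher and a median of -0.78. Across all genes tested, 32.8% were called lower and 33.2% higher. Epyc, a small leucine-rich proteoglycan gene of the growth plate, fell from 7.75, 7.58 and 8.59 CPM to 0.281, 0.831 and 0.894 CPM. Col27a1, a fibril collagen of cartilage, changed by -1.89 (SE 0.150) and Cilp, the cartilage intermediate layer protein gene, by -1.71 (SE 0.178). Prg4, which encodes the joint lubricant lubricin, rose from 4.58 ± 0.719 to 314 ± 37.3 CPM (log2 fold change 6.10, SE 0.111). Prelp, a small leucine-rich proteoglycan gene, rose from 200 ± 2.24 to 1140 ± 7.09 CPM. Vcan, which encodes versican, a proteoglycan of the aggrecan family, rose from 936 ± 17.8 to 1983 ± 38.5 CPM (adjusted p-value 1e-12), the opposite direction to Acan. Matn1, Cnmd, Ucma and Scrg1, all known from cartilage and named after their values were seen, averaged at most 1 count per library.

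The enzymes that build the chondroitin sulfate chains of aggrecan and of other proteoglycans moved in shares close to those of all genes. Of 27 listed, 25 were tested, with 8 lower (32.0%, against 32.8% of all genes), 7 higher (28.0%, against 33.2%), 10 with no call and a median of -0.03. Among the lower were the sulfotransferase genes Chst3 (38.9 ± 3.09 to 10.1 ± 2.08 CPM) and Ust (16.4 ± 0.364 to 4.83 ± 0.783 CPM) and the chain-building gene Chsy1 (137 ± 3.92 to 80.1 ± 3.93 CPM). Among the higher were Ugdh, which makes the sugar donor UDP-glucuronate (177 ± 3.80 to 645 ± 17.2 CPM), and the sulfotransferase genes Chst15 (10.6 ± 1.14 to 21.1 ± 2.13 CPM) and Chst11 (18.7 ± 1.96 to 36.2 ± 4.78 CPM). The adjusted p-values of these 6 genes ran from 4.8e-15 for Ugdh to 1e-06 for Chst15.

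Of the 11 listed proteases that cleave aggrecan or Comp or act in cartilage breakdown, all 11 were tested. Of these, 8 were higher (72.7%, against 33.2% of all genes) and 2 lower (18.2%, against 32.8%). This list too was chosen with earlier results of these data known, so its shares are a description. The median was 0.96, also 0.96 with the 2 genes at the floor in Vector set to their bounds. Mmp3 had 0 counts in each Vector library and reached 20.2, 35.2 and 15.6 CPM, which is at least 108-fold higher. Mmp13, collagenase 3, had 2, 0 and 0 counts in Vector and reached 4.70, 4.23 and 4.02 CPM, at least 19.7-fold higher. Adamts15 rose from 14.6 ± 1.79 to 184 ± 13.9 CPM. The main aggrecanase genes Adamts4 and Adamts5, named after their values were seen, rose by 1.52 (SE 0.0896) and 0.68 (SE 0.0675) on the log2 scale. Adamts7, also named after its values were seen, rose by 0.94 (SE 0.0498). The 2 that fell were Adamts12, by 1.31 (SE 0.0889), and Adamts1, by 0.50 (SE 0.0406).

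**Figure D3:**
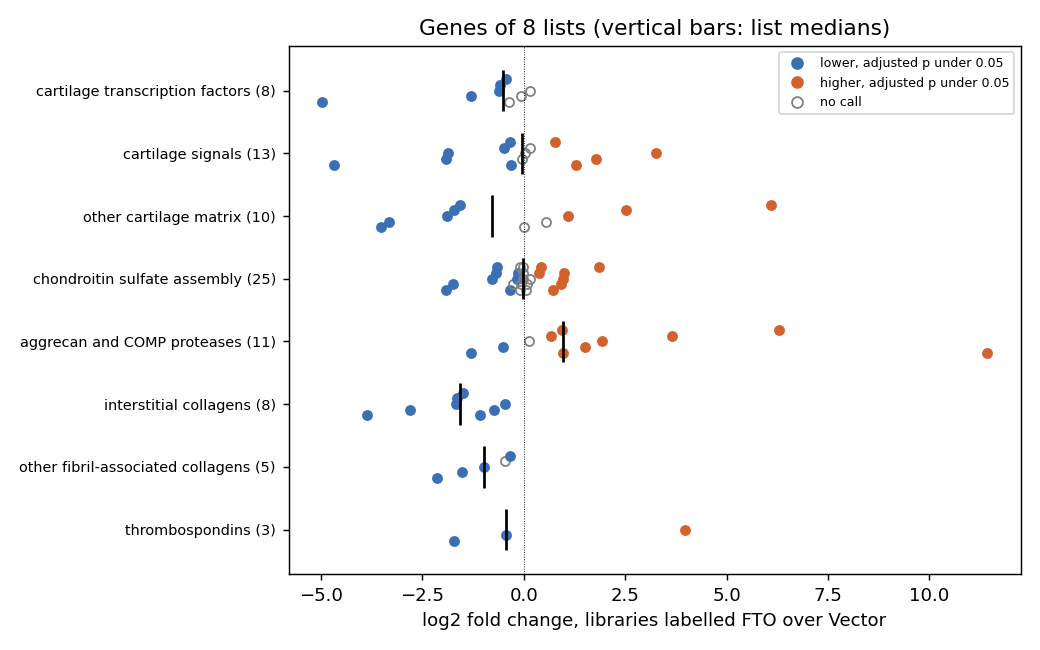
Log2 fold change of each tested gene in the 8 lists, libraries labelled FTO over Vector, with the number tested in brackets and a vertical bar at each list median. Filled symbols mark genes called by edgeR at an adjusted p-value under 0.05, blue lower and orange higher. The collagen lists lie to the left, the proteases mostly to the right, and the chondroitin sulfate genes on both sides of 0. Mmp3 and Mmp13, at the far right of the proteases, are fitted values against 3 Vector libraries at or under the floor.

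The collagens that surround the members in fibroblast matrix were set beside them. All 8 interstitial chains tested fell (100%, against 32.8% of all genes), with log2 fold changes from -3.86 to -0.46 and a median of -1.57. At either the adjusted or the unadjusted threshold in edgeR 0 rose, with 0 in DESeq2 and limma-voom too. Col6a3 fell from 1420 ± 37.3 to 97.0 ± 17.8 CPM and Col5a3 from 111 ± 6.17 to 15.9 ± 1.14 CPM, while Col3a1 changed by -1.68 (SE 0.0608). The change of Col11a1, -3.82 (SE 0.0767), thus lay near that of Col6a3, -3.86 (SE 0.0917), and beyond that of the type V chain Col5a1, -1.51 (SE 0.0560). Of the 5 other collagens that sit on fibrils as type IX does, 4 fell (80.0%, against 32.8% of all genes), 3 with DESeq2. Their median was -0.98. In edgeR 0 rose at either threshold, and 0 rose with DESeq2 and with limma-voom. Col14a1 changed by -2.15 (SE 0.100), Col12a1 by -1.53 (SE 0.102) and Col16a1 by -0.33 (SE 0.0477). In the thrombospondin family of Comp, 3 of 4 genes were tested. Thbs2 rose from 73.6 ± 2.11 to 1150 ± 115 CPM, while Thbs1 and Thbs3 changed by -1.72 (SE 0.0547) and -0.43 (SE 0.0773). Thbs4, which was not tested, had 17, 6 and 15 counts in Vector and 2, 4 and 1 in the libraries labelled FTO.

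**Figure D4:**
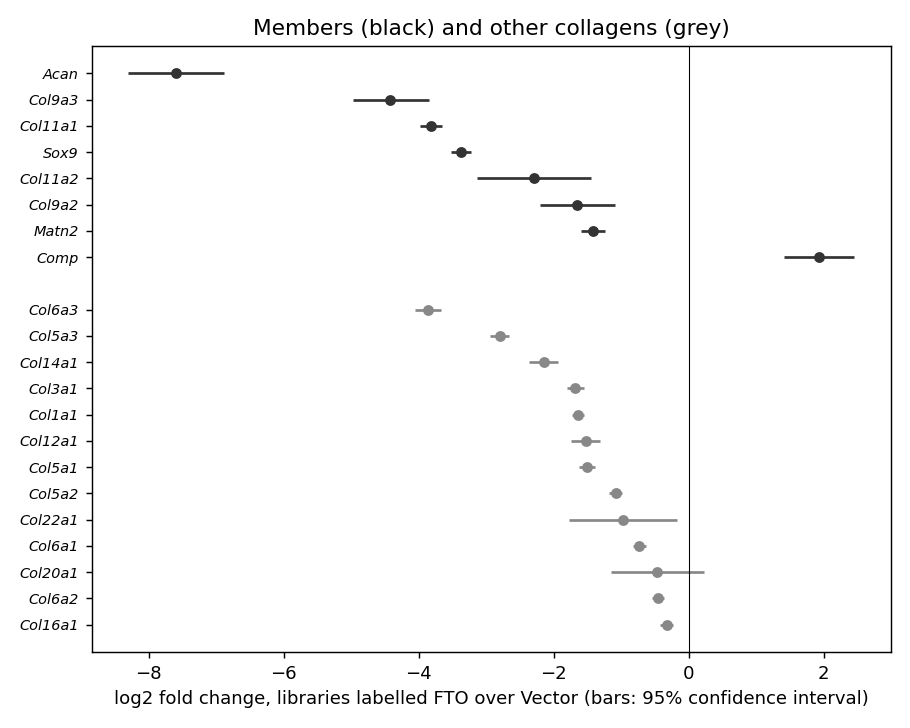
Log2 fold change of the 8 fitted members (black) and of the interstitial and other fibril-associated collagens (grey), libraries labelled FTO over Vector, with bars for the 95% confidence interval, never drawn narrower than counting error. Acan stands furthest to the left at -7.60, Comp alone lies right of 0 at 1.93, and the interval of Col20a1 among the grey genes crosses 0.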

How the data were processed

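Total RNA from NRCFs was made into libraries with a NEBNext Ultra kit and sequenced on an Illumina platform. The authors deposited raw counts, a whole number per gene symbol, in 1 file per library. Their processing notes name Trimmomatic and build rn6. Which aligner, counter, annotation and strand setting were used is not given in the sources used here, so counts of overlapping genes are uncertain. Genes were kept by filterByExpr of edgeR at a minimum count of 10, scaled by TMM (factors from 0.995 to 1.005) and compared between 3 and 3 libraries with edgeR 4.0.16 in R 4.3.3, by its quasi-likelihood test, two-sided, with Benjamini-Hochberg adjustment over 12941 genes. The SE was derived from the fold change and its F statistic, and replaced by the counting error of the summed counts where that was larger. Fold-change intervals use this SE. The labels do not say whether replicates were separate cultures, so p-values measure the spread between these libraries. The floor of 3 counts and the limits for 0 counts cover counting error only, and a bound divides by the largest floor of the group.

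The members and gene lists were chosen with earlier results of these data known. Named genes were the members, Fto and, per list, the 3 largest increases and 3 largest decreases of called genes (adjusted p-value under 0.05) averaging at least 20 counts, plus the 3 genes nearest to Acan and to Sox9 in centred log2(CPM + 0.5). Of the list genes, 99 of 101 symbols were found, Bpnt2 as Impad1. Marker lists for endothelial, mural, epicardial and cardiomyocyte cells were also summed, and 1 listed Schwann cell marker is not reported here. Alternatives were DESeq2 1.42.0, limma-voom 3.58.1, other scalings and filters, a replicate block, and leaving out each library. The procedure was tested on simulated data.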

Additional observations from a re-analysis of the deposited data

How the results depend on the processing

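The direction of all 8 fitted members was the same under each of 13 alternatives. The members were chosen on this contrast and their groups lay apart, so a change of direction was unlikely and nothing is read from its absence. The log2 fold change ran from -7.76 to -7.43 for Acan, -3.46 to -3.29 for Sox9, -3.92 to -3.71 for Col11a1, -4.56 to -4.23 for Col9a3, -1.70 to -1.58 for Col9a2, -1.50 to -1.34 for Matn2 and 1.81 to 2.06 for Comp, and most widely, from -2.87 to -1.84, for Col11a2, whose values rest on 1 to 12 counts in the libraries labelled FTO. Fto had no call in any alternative. Over the 8 lists together, 40 genes were called lower (37 to 43 over the alternatives) and 23 higher (23 to 25). These were 48.2% and 27.7% of the 83 tested, against 32.8% and 33.2% of all genes. The number of cartilage transcription factors called higher ran from 0 to 1 when single libraries were left out, being 1 without FTO replicate 2, and the cause was not tested. Of the 35 list genes named by rule, Sox6 alone lost its call, in 4 alternatives, and none changed sign.

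No sign of pairing by replicate number was seen. Deviations from the group means correlated at 0.004, -0.079 and 0.035 for the same number, against -0.115 to 0.109 for different ones. With 3 libraries per group, a weak pairing could be missed. With the replicate block, 8399 genes were called in place of 8531, and the lists held 40 genes lower and 23 higher in total, with transcription factors called lower at 6 in place of 5 and chondroitin sulfate genes called lower at 7 in place of 8. Levels per transcript length were planned and not run, since no transcript lengths were at hand. Depth limits Col2a1, Col9a1 and the lower group of Acan, Col9a3 and Col11a2, where a few counts set the value.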

Other observations

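Among the marker lists not set beside the members above, the 7 epicardial markers were all tested, with 5 higher and 1 lower, and their summed level was 57.1 to 62.9 CPM in Vector and 204 to 221 CPM in the libraries labelled FTO. The 8 cardiomyocyte markers summed to 1463 to 1492 and 2189 to 2224 CPM, with 7 higher and 1 lower. The 7 mural markers summed to 1504 to 1563 and 844 to 945 CPM, with 4 lower and 2 higher of 6 tested. The 7 endothelial markers summed to 19.3 to 19.8 and 43.3 to 45.0 CPM, with 3 higher of 4 tested and Cldn5 at 0 counts in every library. Over all genes tested, 32.8% were called lower and 33.2% higher.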
